A study of Homo sapiens with 12 samples.

Results

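The genes examined were those for aminoacyl-tRNA synthetases, the enzymes that join each amino acid to its own transfer RNA before translation. They were found by symbol: 1 amino acid letter followed by ARS, with or without a final 1 or 2, together with EPRS1, which charges glutamate and proline, and FARSA and FARSB, the subunits of the cytosolic phenylalanine enzyme. 35 such genes, of the 60558 gene identifiers shared by the deposited tables, are described, and all 35 passed the filter on low counts in both experiments. A symbol ending in 2 marked a mitochondrial enzyme, which gave 19 cytosolic and 16 mitochondrial genes. The grouping by symbol is approximate for GARS1 and KARS1, since each is known to supply the enzyme of both compartments. The table of the NONO experiment carried older names for the cytosolic enzymes (AARS, CARS and so on), and the current names are used here.

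Most cytosolic synthetases act alone or as pairs, but a group of them is held in a multisynthetase complex by the scaffold proteins AIMP1, AIMP2 and EEF1E1 (also called AIMP3). The complex enzymes described here are EPRS1, IARS1, LARS1, MARS1, QARS1, RARS1 and KARS1. Mitochondria have their own set, encoded in the nucleus, which charges transfer RNAs for the few proteins made inside the organelle. Class I and class II synthetases differ in the fold of the catalytic domain. Several cytosolic synthetase genes are known targets of ATF4, the transcription factor of the amino acid and integrated stress responses.

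RNA-seq was performed on MDA-MB-231 cells, an established human triple-negative breast cancer (TNBC) line, in 2 experiments. In the first, 3 negative control (NC) libraries labelled wild type were set against 3 NONO knockdown (KD) libraries, and in the second 3 other NC libraries were set against 3 PKM2 KD libraries. NONO is a nuclear RNA- and DNA-binding protein, and PKM2 is the pyruvate kinase isoform of most proliferating cells. The study's methods describe both lentiviral short hairpins with a scrambled control and transient small interfering RNAs with a control called NC, without saying which of them gave these libraries or whether the repeats were separate cultures, so P values measure only the spread between these libraries. Total counts lay between 19861762 and 28455268 per library. Of the markers of the line, the mesenchymal filament gene VIM lay between 3291 and 4466 TPM (transcript counts scaled by length and by the library total), CD44 between 275 and 330 TPM, the hormone receptor genes ESR1 and PGR at no more than 0.41 TPM and the epithelial genes CDH1 and EPCAM at no more than 0.06 and 3.73 TPM. ERBB2, the receptor whose lack of excess protein helps to define TNBC, was present at 13.7 to 35.2 TPM. After PKM2 KD ERBB2 fell by 0.86 and EPCAM by 0.70 on the log2 scale (adjusted P = 6.12e-08 and 0.0162), and the part of these changes in the results was not tested. The targeted genes fell in every knockdown library. NONO lay at 391, 358 and 369 CPM (counts scaled by library size, not by length) in NC and at 61.8, 64.3 and 61.9 CPM in NONO KD (log2 fold change -2.57 ± 0.05, SE). PKM, the gene that encodes PKM2, fell by 3.32 ± 0.05 on the log2 scale in PKM2 KD. Reads of bulk cultures cannot tell fewer cells of a kind from less RNA per cell.

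In NC cells the cytosolic enzymes were the more abundant set. Per transcript length, the 19 cytosolic genes summed to 2370 ± 65.3 TPM and the 16 mitochondrial genes to 366 ± 2.99 TPM in the NC of the NONO experiment (SD, n = 3), a ratio of 6.47 ± 0.13. In the NC of the PKM2 experiment the sums were 2249 ± 34.1 and 351 ± 1.53 TPM, with a ratio of 6.41 ± 0.08. The tables were normalised separately, so these values are set side by side and were not tested against each other. TARS1, the threonine enzyme, ranked first in both NC groups, at 354 ± 20.8 and 323 ± 14.3 TPM. It was followed in the NONO experiment by WARS1 (tryptophan), MARS1 (methionine), FARSA and GARS1 (glycine), at 191 ± 4.88, 181 ± 64.2, 172 ± 13.7 and 161 ± 6.24 TPM. The spread of MARS1 takes in its neighbours in that order, so their ranks are not resolved. FARSB stood apart from its subunit partner FARSA per length, at 12.8 ± 0.71 against 172 TPM in the NONO experiment and 16.1 ± 0.96 against 184 TPM in the PKM2 experiment, and was the lowest of the cytosolic genes in both. The gap depends on the lengths assigned, 6761 bases for FARSB and 2057 for FARSA. In counts it was smaller, at 63.4 against 197 CPM in the NC of the NONO experiment.

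Among mitochondrial enzymes IARS2 (isoleucine) and CARS2 (cysteine) reached the range of the cytosolic set, at 82.5 ± 2.94 and 69.7 ± 5.17 TPM in the NC of the NONO experiment. The other 14 lay between 5.05 ± 0.40 TPM (PARS2, proline) and 24.6 ± 1.42 TPM (TARS2). PARS2, WARS2 and AARS2 occupied the last 3 places in both NC groups. The MARS1 level per length was uneven between NC libraries, which the SD of 64.2 TPM reflects, while its count in CPM was not (191, 201 and 191 CPM). Changes are therefore given from counts, and levels between genes in TPM.

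**Figure D1:**
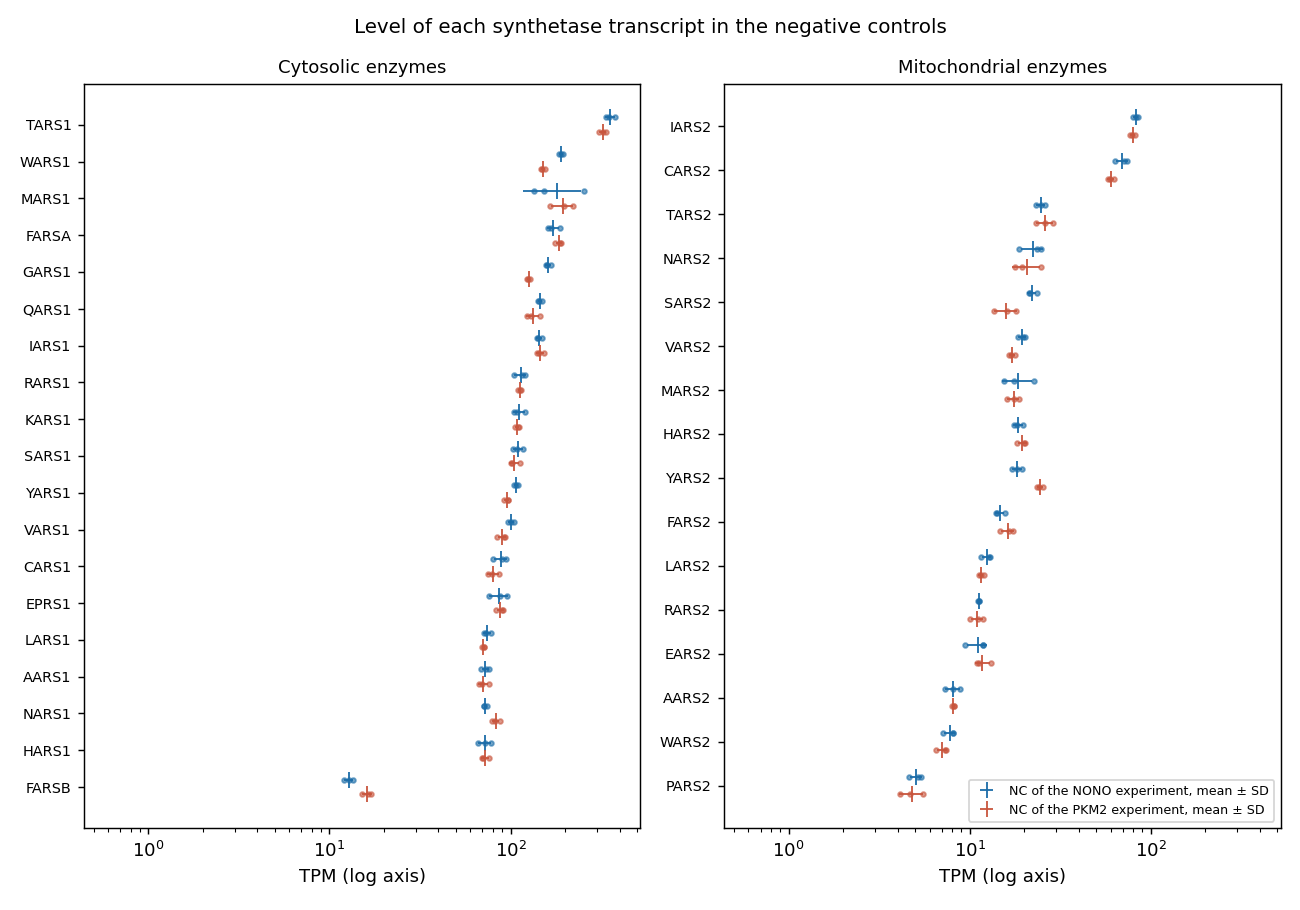
Level of each synthetase transcript in the NC libraries of both experiments, in TPM on a log axis. Points are single libraries, ticks and bars the mean ± SD of 3 libraries, blue for the NC of the NONO experiment and red for that of the PKM2 experiment. TARS1 leads the cytosolic enzymes and FARSB lies far below them, while IARS2 and CARS2 lead the mitochondrial enzymes.

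PKM2 KD changed the synthetase genes unevenly, and no member doubled or halved. The serine enzyme SARS1, the lysine enzyme KARS1, the tyrosine enzymes YARS1 and YARS2 and the isoleucine enzyme IARS1 rose most, while the mitochondrial serine, tryptophan and valine enzymes SARS2, WARS2 and VARS2 fell most. At an adjusted P below 0.05, 13 of the 35 members rose, 7 fell and 15 were not called. That is 57.1% of the members, against 68.4% of the 15524 genes tested in the same experiment, so the number of calls is not above that of the transcriptome. Of the cytosolic genes 8 rose and 3 fell, and their log2 fold changes centred on a median of 0.11, or 0.062 without NC replicate 3. Of the mitochondrial genes 5 rose and 4 fell, with a median of 0.0083. Over all tested genes 33.6% rose and 34.7% fell, with a median of -0.015. With the study's rule of a fold change above 2 and P below 0.05, 0 of the 35 were called by edgeR, DESeq2 or limma, although 21 had an unadjusted P below 0.05 in edgeR, and 20.8% of all tested genes met the rule. On the TPM scale the split of the cytosolic genes was 7 raised and 4 lowered in limma, and the medians turned to -0.015 for the cytosolic and -0.087 for the mitochondrial genes, where that of all genes was -0.094.

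SARS1 had the largest rise of the family. It lay at 107, 114 and 106 CPM in NC and at 201, 200 and 212 CPM in PKM2 KD (log2 fold change 0.91 ± 0.05, adjusted P = 2.01e-08). KARS1, whose product sits in the multisynthetase complex, lay at 145, 144 and 140 CPM in NC and at 245, 247 and 258 CPM in PKM2 KD (0.81 ± 0.05, adjusted P = 2.42e-08). YARS1 rose from 152, 156 and 159 CPM to 231, 229 and 231 CPM (0.57 ± 0.04, adjusted P = 3.21e-07). In each of these 3 genes every knockdown library lay above every NC library, with a gap several times the spread within a group. Members shown by library were picked for large changes in the same libraries, so complete separation, here and below, adds no further evidence. Its share over all tested genes was not counted. IARS1, another complex enzyme, rose from 413, 415 and 420 CPM to 606, 620 and 593 CPM (0.54 ± 0.04, adjusted P = 3.58e-07).

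The cytosolic falls were smaller. MARS1 lay at 164, 180 and 181 CPM in NC and at 138, 143 and 134 CPM in PKM2 KD (log2 fold change -0.34 ± 0.05, adjusted P = 0.000128). VARS1, the valine enzyme, lay at 208, 204 and 213 CPM in NC and at 170, 172 and 164 CPM in PKM2 KD (-0.31 ± 0.04, adjusted P = 7.61e-05). WARS1 lay at 154, 155 and 160 CPM in NC and at 140, 146 and 144 CPM in PKM2 KD (-0.12 ± 0.05, adjusted P = 0.0319). The groups do not overlap in these genes either, but the WARS1 call was lost with DESeq2, with RLE factors, without the count filter and without any 1 library other than PKM2 KD replicate 3 (adjusted P up to 0.133). In this experiment the median log2 fold change ran from 0.17 in the genes of lowest GC content to -0.29 in those of highest GC content, and with that trend removed VARS1 stood at -0.09, WARS1 at -0.04 and MARS1 at -0.23. MARS1 overlaps ARHGAP9 by 519 and DDIT3 by 355 exonic bases, both on the opposite strand, in GENCODE 29. After PKM2 KD ARHGAP9 fell by 1.71 and DDIT3 rose by 2.05 on the log2 scale; strand was not stated for the counts, so the part of shared reads was not tested.

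In the mitochondrial set the tyrosine enzyme YARS2 rose from 23.2, 23.4 and 23.8 CPM to 38.5, 44.1 and 42.2 CPM after PKM2 KD (log2 fold change 0.82 ± 0.07, adjusted P = 5.02e-07). CARS2, whose NC level was among the highest of its set, rose from 65.6, 63.0 and 65.4 CPM to 87.9, 87.9 and 88.3 CPM (0.44 ± 0.05, adjusted P = 6.59e-06). EARS2, the glutamate enzyme, rose from 22.7, 22.2 and 20.8 CPM to 28.3, 27.8 and 26.6 CPM (0.33 ± 0.07, adjusted P = 0.00092). None of these NC and knockdown libraries overlapped, but the EARS2 call was absent on the TPM scale (adjusted P up to 0.38). MARS2 and LARS2 rose by less, at 0.19 and 0.16, and both calls were lost on the TPM scale, that of LARS2 also without the count filter. The MARS2 call was also lost without PKM2 KD replicate 2 or NC replicate 1 or 3 (adjusted P up to 0.113), and the LARS2 call without PKM2 KD replicate 1 or 2 or NC replicate 2 or 3 (adjusted P up to 0.108). Of the cytosolic rises, that of AARS1 (0.17) was lost on the TPM scale and without NC replicate 1 (adjusted P = 0.0777).

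The mitochondrial falls were the largest in the family. SARS2 lay at 17, 15.7 and 14.3 CPM in NC and at 9.90, 8.64 and 9.67 CPM in PKM2 KD (log2 fold change -0.73 ± 0.10, adjusted P = 3.91e-05). WARS2 lay at 13.3, 12.6 and 12 CPM in NC and at 7.46, 8.34 and 7.81 CPM in PKM2 KD (-0.68 ± 0.10, adjusted P = 6.62e-05). VARS2 lay at 31.1, 30.7 and 30.1 CPM in NC and at 21.6, 21.5 and 22.1 CPM in PKM2 KD (-0.49 ± 0.06, adjusted P = 2.02e-05). Every knockdown library was below every NC library in all 3, and AARS2, the alanine enzyme, fell as well (-0.31 ± 0.07, adjusted P = 0.0024). SARS2 shares 1492 of its 3231 exonic bases with the readthrough gene AC011455.2 on the same strand and 349 with MRPS12 on the opposite strand, and VARS2 shares 1858 of 8448 with GTF2H4 on the same strand. MRPS12 rose by 0.38 and GTF2H4 fell by 0.31 on the log2 scale. With the GC trend removed AARS2 stood at -0.12 and VARS2 at -0.31.

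**Figure D2:**
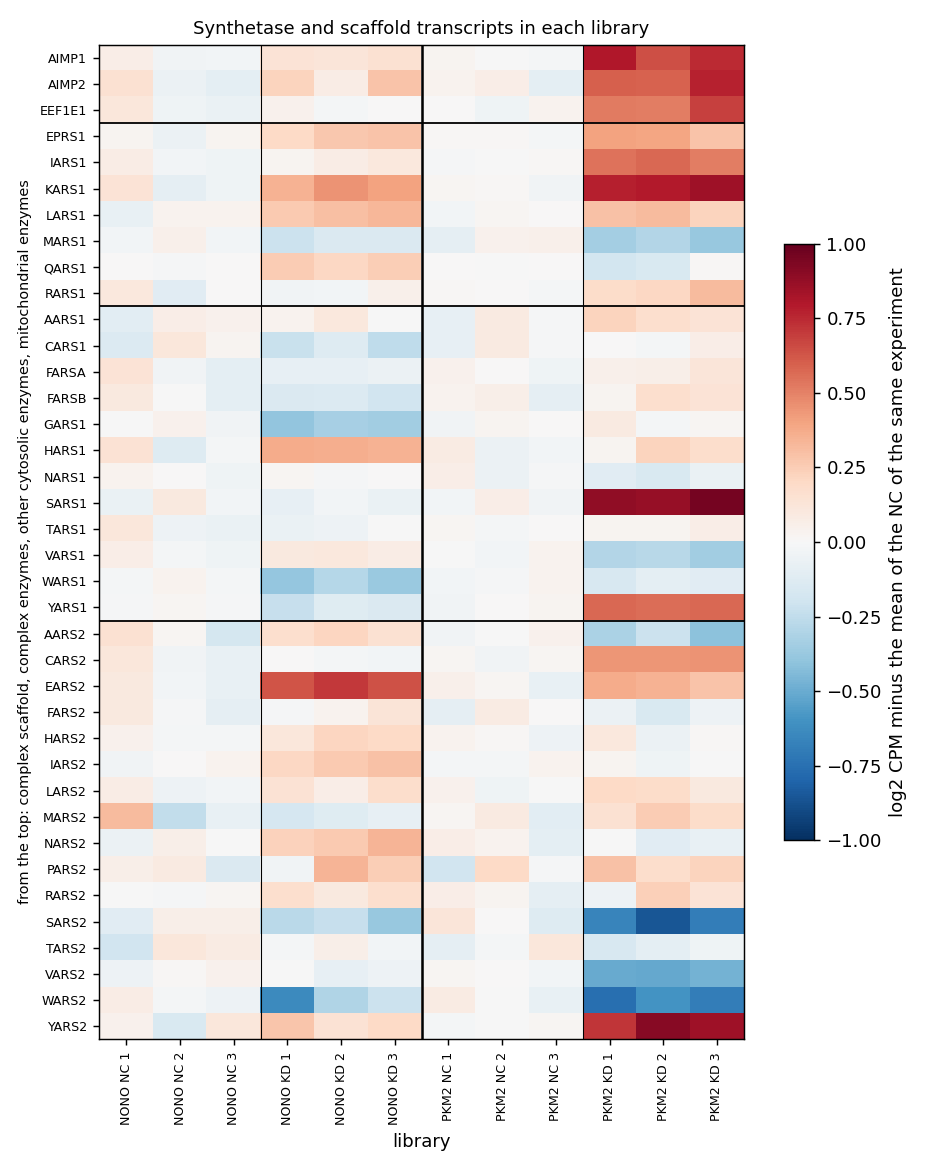
Synthetase and scaffold transcripts (rows) in each of the 12 libraries (columns), as log2 CPM minus the mean of the 3 NC libraries of the same experiment, in red above and blue below 0. Black lines part the scaffold genes, the complex enzymes, the other cytosolic enzymes and the mitochondrial enzymes. The deepest colours stand in the PKM2 KD columns, from -0.85 in SARS2 to 0.96 in SARS1.

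Most genes of the multisynthetase complex, its scaffold included, rose after PKM2 KD. Of the 7 complex enzymes 5 rose (KARS1, IARS1, EPRS1, LARS1 and RARS1), MARS1 fell and QARS1 was not called, with a median log2 fold change of 0.28. Of the 12 cytosolic enzymes outside the complex 3 rose, 2 fell and 7 were not called, with a median of 0.06. With the GC trend removed KARS1 stood at 0.80, IARS1 at 0.48, EPRS1 at 0.30, LARS1 at 0.20 and RARS1 at 0.16, each lower. MARS1 stood higher, at -0.23. The called enzymes outside the complex also stood higher, SARS1 at 0.99, YARS1 at 0.65, AARS1 at 0.29, WARS1 at -0.04 and VARS1 at -0.09. Medians of the complex with that trend removed were not computed. In the same experiment 33.6% of all tested genes rose. The 3 scaffold genes were all raised. AIMP1, which binds transfer RNA, rose from 49.8, 48.6 and 48.1 CPM to 85.0, 76.3 and 81.8 CPM (0.73 ± 0.06, adjusted P = 3.57e-07). AIMP2 rose from 30.4, 31.0 and 27.7 CPM to 44.9, 44.6 and 50.6 CPM (0.65 ± 0.07, adjusted P = 6.43e-06), and EEF1E1 from 74.0, 71.5 and 75.4 CPM to 106, 105 and 118 CPM (0.57 ± 0.06, adjusted P = 3.65e-06). In all, 8 of 10 complex genes were raised, and the count was 8 also without each single library. The groups separate in each scaffold gene, and the gap is wider than the spread of the knockdown libraries.

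In the edgeR fit of all libraries NONO KD moved fewer of the genes and by less. The number raised depended on the libraries: with each left out in turn, 5 to 7 cytosolic and 2 to 7 mitochondrial genes rose. At an adjusted P below 0.05, 8 of the 35 members rose, 7 fell and 20 were not called, or 42.9% called against 33.4% of the 14832 genes tested. Of the cytosolic genes 5 rose (KARS1, HARS1, LARS1, EPRS1 and QARS1) and 5 fell (GARS1, WARS1, CARS1, MARS1 and YARS1), and their log2 fold changes had a median of -0.0037. Of the mitochondrial genes 3 rose (EARS2, NARS2 and IARS2) and 2 fell (WARS2 and SARS2), with a median of 0.14, where the median of all tested genes was -0.011. Over all tested genes 16.2% rose and 17.2% fell. With the rule of a fold change above 2 and P below 0.05, 0 of the 35 were called by edgeR, DESeq2 or limma, against 2.95% of all tested genes, although 18 had an unadjusted P below 0.05 in edgeR. On the TPM scale the cytosolic split was 3 raised and 5 lowered, and 1 mitochondrial gene rose and 1 fell in limma.

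The largest rise after NONO KD was that of EARS2, which lay at 21.7, 19.9 and 19.3 CPM in NC and at 31.4, 33.1 and 31.6 CPM in NONO KD (log2 fold change 0.66 ± 0.07, adjusted P = 5.79e-05). The separation was complete in counts, but on the TPM scale the call was lost (adjusted P up to 0.249). NARS2, the asparagine enzyme, rose from 23.8, 25.8 and 24.8 CPM to 29.1, 29.8 and 31.4 CPM (0.28 ± 0.07, adjusted P = 0.00946). IARS2 rose from 199, 204 and 209 CPM to 235, 244 and 250 CPM (0.25 ± 0.04, adjusted P = 0.000841). The NARS2 call was lost on the TPM scale and, by a narrow margin, without NONO KD replicate 3 (adjusted P = 0.0504). WARS2 lay at 14.7, 13.8 and 13.5 CPM in NC and at 9.03, 11.3 and 12.1 CPM in NONO KD (-0.37 ± 0.12, adjusted P = 0.028). SARS2 lay at 17.9, 20.1 and 20.1 CPM in NC and at 16.1, 16.5 and 14.8 CPM in NONO KD (-0.30 ± 0.09, adjusted P = 0.0213). The groups do not overlap in either gene. Each of these falls was nevertheless lost without any 1 of 4 libraries, NC replicates 2 and 3 and NONO KD replicates 1 and 2 for WARS2 and NC replicates 2 and 3 and NONO KD replicates 1 and 3 for SARS2. The SARS2 fall was also lost on the TPM scale (adjusted P up to 0.125).

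Among cytosolic enzymes KARS1 rose from 165, 141 and 146 CPM to 191, 205 and 198 CPM after NONO KD (log2 fold change 0.40 ± 0.06, adjusted P = 0.000435). HARS1, the histidine enzyme, rose from 96.6, 79.9 and 86.2 CPM to 113, 113 and 111 CPM (0.36 ± 0.06, adjusted P = 0.00114). LARS1, the leucine enzyme, rose from 185, 199 and 199 CPM to 232, 239 and 244 CPM (0.30 ± 0.04, adjusted P = 0.000475). All knockdown libraries exceeded all NC libraries in these genes. GARS1 fell from 230, 237 and 225 CPM to 176, 183 and 181 CPM (-0.36 ± 0.04, adjusted P = 7.86e-05), and WARS1 from 162, 169 and 162 CPM to 126, 135 and 127 CPM (-0.35 ± 0.04, adjusted P = 0.000159). CARS1 lay at 122, 145 and 137 CPM in NC and at 115, 123 and 113 CPM in NONO KD (-0.20 ± 0.06, adjusted P = 0.0263). GARS1 and WARS1 separated completely, while the CARS1 groups overlapped and its call was lost without NC replicate 2 or 3 or NONO KD replicate 1 or 3 (adjusted P up to 0.113). The fall of MARS1 was lost without NC replicate 2 or NONO KD replicate 1 (adjusted P = 0.0567 and 0.0617). On the TPM scale the MARS1 fall (adjusted P up to 0.611) and the rises of EPRS1 and QARS1 (adjusted P up to 0.227 and 0.119) were lost. KARS1, HARS1, LARS1, GARS1 and WARS1 were the 5 of 15 calls that held under every alternative fit run.

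Of the scaffold genes none was called in the NONO experiment. Of the 7 complex enzymes 4 rose, MARS1 fell, and IARS1 and RARS1 were not called, with a median log2 fold change of 0.23, while of the 12 other cytosolic enzymes 1 rose, 4 fell and 7 were not called, with a median of -0.07. AIMP1, AIMP2 and EEF1E1 stood at 0.14, 0.19 and 0.01 and were not called (adjusted P = 0.0668, 0.1 and 0.949). The test of the difference between the knockdowns passed for all 3, with the change after PKM2 KD larger by 0.58, 0.45 and 0.55 on the log2 scale (adjusted P = 5.21e-06, 0.0037 and 3.49e-05). Without NC replicate 1, 7 of the 10 complex genes were raised after NONO KD rather than 4. MARS1 stayed lowered there, IARS1 passed in 1 alternative fit and RARS1 in none, so scaffold genes were among those added. The absence of scaffold calls thus depends on NC replicate 1. That library stood apart from its group: the chi-square per degree of freedom of its counts was 10.2 and 8.29 against replicates 2 and 3. Between replicates 2 and 3 the value was 2.47. By catalytic fold, 5 of 10 class I and 3 of 9 class II cytosolic genes rose after PKM2 KD, with 3 and 0 lowered. After NONO KD 3 of 10 and 2 of 9 rose, with 4 and 1 lowered. Over all tested genes 33.6% rose and 34.7% fell after PKM2 KD, and 16.2% and 17.2% after NONO KD. EPRS1, which charges both glutamate and proline, was counted in class I only, so the split is approximate for it.

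**Figure D3:**
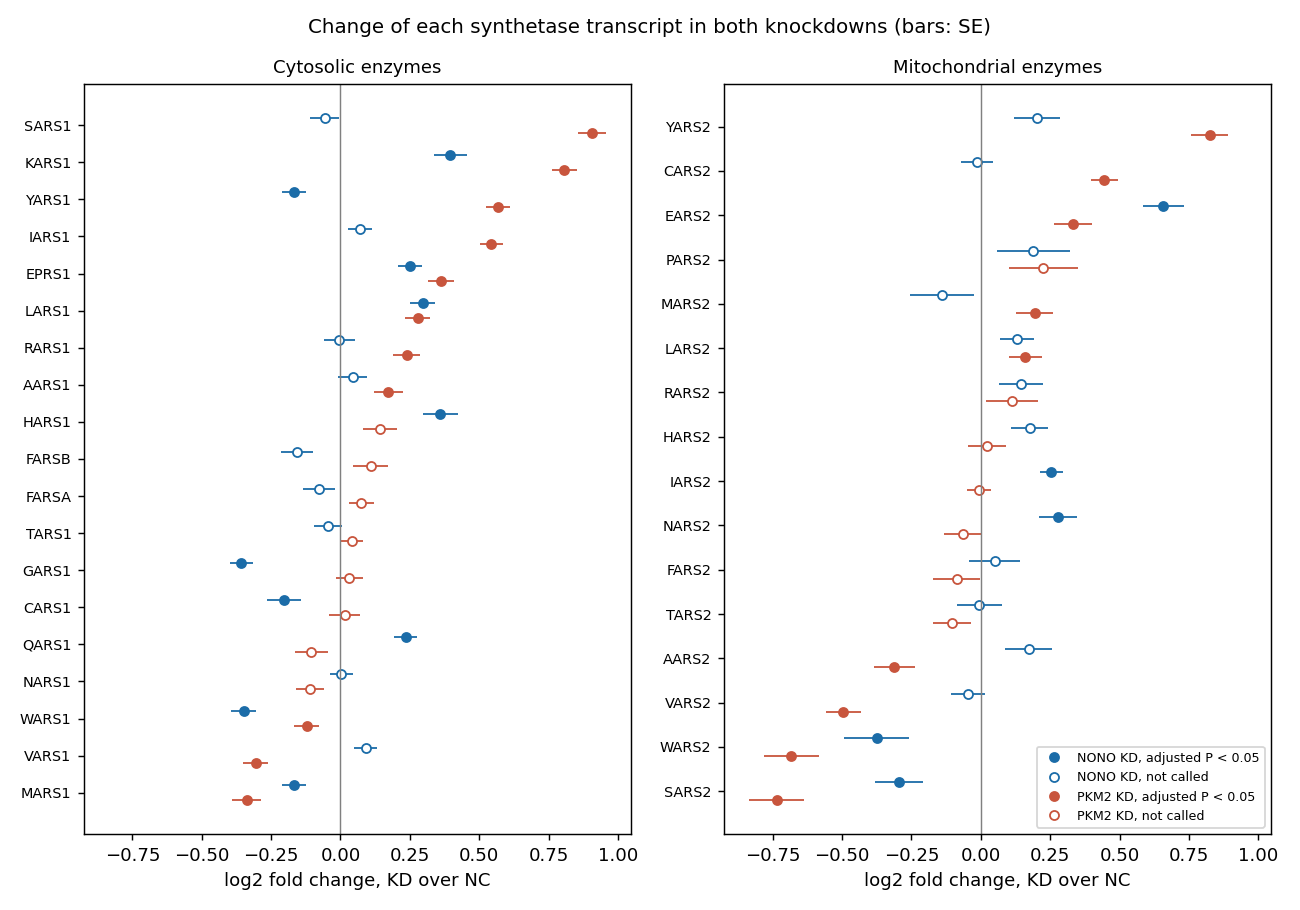
Log2 fold change of each synthetase gene, KD over NC, from edgeR, with bars of 1 SE, blue for NONO KD and red for PKM2 KD. Filled points have an adjusted P below 0.05. SARS1 and YARS1 lie at or below 0 after NONO KD and at 0.91 and 0.57 after PKM2 KD, while EARS2 rises more after NONO KD.

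The knockdowns were compared directly by testing, in 1 fit over all 12 libraries, whether the change from the own NC differed. 19 of the 35 members differed at an adjusted P below 0.05, or 54.3%, against 53.1% of the 15995 genes tested. Of the cytosolic genes 8 changed more upward after PKM2 KD and 3 more upward after NONO KD, and of the mitochondrial genes 2 and 6, where 25.7% of all tested genes were higher and 27.4% lower. The median difference, PKM2 minus NONO, was 0.14 over the cytosolic and -0.16 over the mitochondrial genes, where it was -0.016 over all genes. On the TPM scale 5 cytosolic genes changed more upward after PKM2 KD. Each experiment has its own NC, and in this contrast the target and the experiment cannot be told apart.

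SARS1 differed most. Its libraries lay at 105, 118 and 108 CPM in NC and at 104, 108 and 105 CPM after NONO KD, where it was not called, in contrast to the near doubling after PKM2 KD (difference 0.95 ± 0.07, adjusted P = 9.75e-09). In TPM SARS1 lay at 103, 117 and 109 in NC and at 90.5, 97.4 and 92.2 after NONO KD, and its fall there passed in 2 alternative fits. In the edgeR fit of all libraries YARS1 was the only member called in opposite directions. It lay at 163, 167 and 163 CPM in NC and at 140, 151 and 149 CPM after NONO KD (log2 fold change -0.17 ± 0.04, adjusted P = 0.0124), and the difference from its rise after PKM2 KD was 0.72 ± 0.06 (adjusted P = 3.55e-08). The fall was lost without NC replicate 2 or NONO KD replicate 1 (adjusted P = 0.0502 and 0.0689), whereas the difference passed in every alternative fit run. IARS1 lay at 462, 431 and 427 CPM in NC and at 449, 463 and 473 CPM after NONO KD, groups that overlap, and differed by 0.46 ± 0.06 (adjusted P = 8.77e-06).

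Of the mitochondrial enzymes CARS2 was level after NONO KD, at 68.2, 61.6 and 60.0 CPM in NC and 63.4, 62.4 and 62.0 CPM in the knockdown, and differed by 0.45 ± 0.07 (adjusted P = 7.9e-05). VARS2 lay at 33.2, 34.7 and 35.4 CPM in NC and at 34.4, 32.5 and 33.2 CPM after NONO KD, and differed by -0.46 ± 0.08 (adjusted P = 0.000135). YARS2 lay at 25.5, 22.3 and 26.8 CPM in NC and at 30, 27.4 and 28.5 CPM after NONO KD (log2 fold change 0.20 ± 0.08, adjusted P = 0.0821), and differed by 0.61 ± 0.11 (adjusted P = 0.000136). YARS2 thus lay higher in every NONO KD library than in every NC library of that experiment without being called. Its called rise after PKM2 KD, against the other NC libraries, was larger.

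9 members were called in both experiments. EPRS1, KARS1, LARS1 and EARS2 were raised in both, MARS1, WARS1, SARS2 and WARS2 were lowered in both, and YARS1 was the exception already given. Of these 9, EPRS1, LARS1 and WARS2 did not pass the test of the difference. The difference for LARS1 was -0.03 ± 0.06, which is small beside its changes of 0.30 and 0.28. The difference for WARS2, -0.32 ± 0.15 (adjusted P = 0.0931), is not resolved by these libraries. FARSA, FARSB, NARS1 and TARS1 among the cytosolic and FARS2, HARS2, PARS2, RARS2 and TARS2 among the mitochondrial genes were called in neither experiment. TARS1, the most abundant member, changed by -0.04 ± 0.05 and 0.04 ± 0.04.

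Cytosolic and mitochondrial enzymes for the same amino acid moved together in some pairs and apart in others. Among 17 pairings, which count EPRS1 with both EARS2 and PARS2 and FARS2 with both subunits, both partners were called in 8 after PKM2 KD. They moved in the same direction in 5 (EPRS1 with EARS2, and the leucine, valine, tryptophan and tyrosine pairs) and in opposite directions in 3 (alanine, methionine and serine). Both calls held under every alternative fit in 3 of the 8, the valine, tyrosine and serine pairs. Removal of the GC trend gave no P and is not among these fits. With it VARS1 stood at -0.09, VARS2 at -0.31 and SARS2 at -0.52. The serine pair parted most: the TPM ratio of SARS1 to SARS2 was 5.60, 6.97 and 7.42 in NC and 13.8, 18.6 and 19.0 after PKM2 KD, and these ranges are far apart. The isoleucine ratio, IARS1 to IARS2, went from 1.81, 1.95 and 1.74 to 2.57, 2.77 and 2.61, with IARS2 itself at -0.01 ± 0.04. After NONO KD both partners were called in 2 pairings, EPRS1 with EARS2 upward and WARS1 with WARS2 downward, and in each of them a partner's call was lost under alternatives.

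Several of the members that moved share exonic bases with a neighbour in GENCODE 29, and since strand was not stated for the counts these values carry an uncertainty that was not tested. KARS1 shares 176 of 4065 bases with TERF2IP on the opposite strand, which fell by 0.18 after NONO KD and rose by 0.39 after PKM2 KD. YARS1 shares 396 of 8212 bases with S100PBP on the opposite strand, which fell by 0.63 after PKM2 KD, where YARS1 rose, and was not called after NONO KD. EARS2 shares 370 of 5730 bases with UBFD1 on the opposite strand, which fell by 0.38 after NONO KD and rose by 0.20 after PKM2 KD, where EARS2 rose in both. CARS2 shares 326 of 10460 bases with ING1 on the opposite strand, which rose by 0.41 after PKM2 KD, as CARS2 did, and like it was not called after NONO KD. HARS1 and HARS2 share 437 bases on opposite strands.

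**Figure D4:**
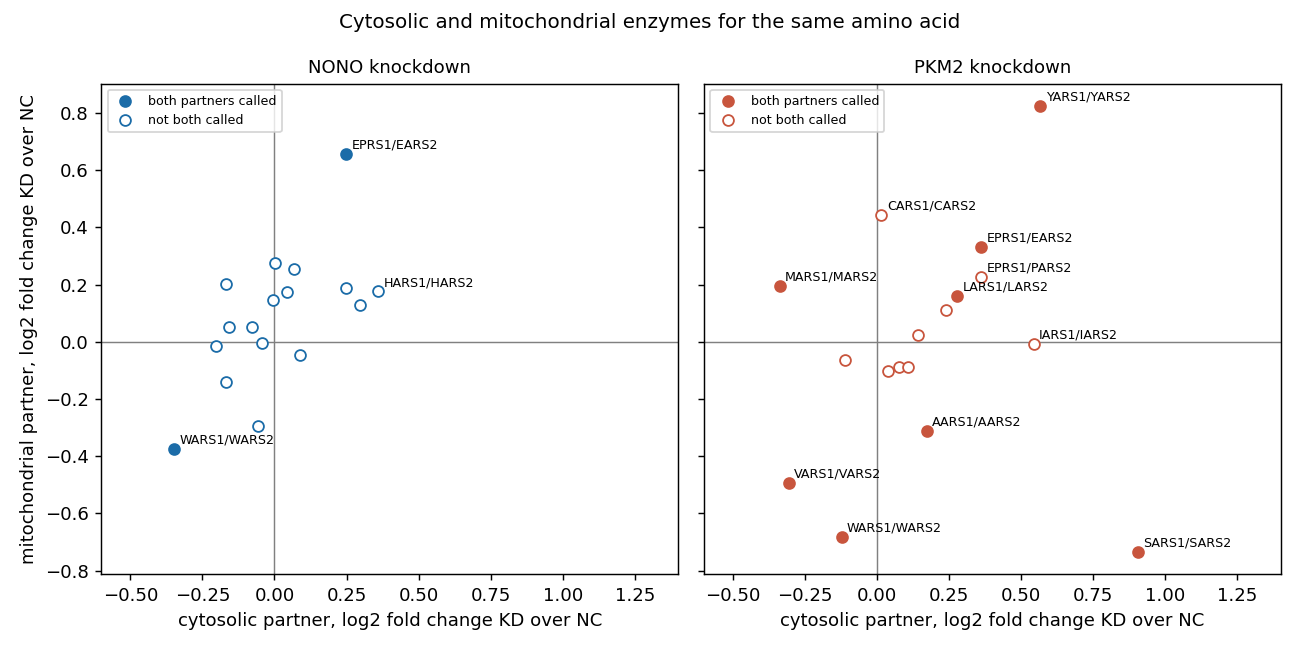
Log2 fold change of the mitochondrial partner against that of the cytosolic partner for 17 pairings, after NONO KD on the left and PKM2 KD on the right. Filled points have both partners called. SARS1/SARS2 lies alone at the lower right after PKM2 KD, at 0.91 and -0.73, and YARS1/YARS2 at the upper right, at 0.57 and 0.82.

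The sums over the family depended on the scale. The cytosolic sum stood at 3437 ± 19.3 and 3996 ± 14.4 CPM before and after PKM2 KD and at 3661 ± 79.8 and 3714 ± 59.6 CPM before and after NONO KD (SD, n = 3). The mitochondrial sum went from 581 ± 1.05 to 610.1 ± 1.35 CPM and from 614 ± 9.20 to 676 ± 11.2 CPM. In TPM the cytosolic sum was 2249 ± 34.1 and 2314 ± 81.4 in NC and PKM2 KD, which overlap, and 2370 ± 65.3 and 2221 ± 26.5 in NC and NONO KD. The cytosolic mean after NONO KD was thus lower than that of NC in TPM and higher in CPM. The TPM ratio of cytosolic to mitochondrial transcripts was 6.41 ± 0.08 in NC and 6.55 ± 0.14 after PKM2 KD, and 6.47 ± 0.13 in NC and 5.95 ± 0.14 after NONO KD. In the NONO experiment the 3 ratios of the knockdown (6.01, 6.06 and 5.80) lay below those of NC (6.54, 6.55 and 6.32). In the PKM2 experiment the TPM ratios of knockdown (6.68, 6.41 and 6.58) and NC (6.33, 6.41 and 6.48) overlapped. The ratio was not computed in CPM. On that scale the cytosolic sum rose proportionally more than the mitochondrial sum after PKM2 KD (3437 to 3996 against 581 to 610.1 CPM). After NONO KD the mitochondrial sum rose proportionally more in CPM.

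The neighbours of the synthetases in transfer RNA charging were taken as lists. In mitochondria, glutaminyl-tRNA is made by an amidotransferase of QRSL1, GATB and GATC, and MTFMT formylates the initiator methionyl-tRNA. After PKM2 KD QRSL1 rose from 16.3, 16.5 and 17.2 CPM to 36.8, 35.5 and 35.9 CPM (log2 fold change 1.11 ± 0.06, adjusted P = 2.77e-08) and GATB from 18.3, 18.9 and 17 CPM to 29, 30.8 and 33.8 CPM (0.79 ± 0.08, adjusted P = 2.92e-06). Every knockdown library of QRSL1 lay more than 2-fold above every NC library. GATC and MTFMT were not called, and none of the 4 was called after NONO KD. Of the relatives of the synthetases, SEPSECS, which makes selenocysteinyl-tRNA, rose after PKM2 KD (0.73 ± 0.15, adjusted P = 0.00115), and TARS3, a further threonine enzyme, fell after NONO KD (-0.49 ± 0.16, adjusted P = 0.0325).

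Elongation factors carry the charged transfer RNA to the ribosome. EEF1A1, the major carrier of the cytosol, rose by 0.36 ± 0.03 after NONO KD and by 0.62 ± 0.04 after PKM2 KD, while its paralogue EEF1A2 fell by 0.57 ± 0.09 and by 1.70 ± 0.07 on the log2 scale. Of the 5 cytosolic factors 2 rose and 1 fell after NONO KD, where 16.2% of all tested genes rose and 17.2% fell. After PKM2 KD 2 rose and 2 fell, where 33.6% of all tested genes rose and 34.7% fell. EEF1A1 and EEF1A2 are close paralogues and EEF1A1 has many processed pseudogenes, so their values depend on how shared reads were divided. The mitochondrial carrier TUFM rose by 0.19 ± 0.04 and 0.24 ± 0.05, and its exchange factor TSFM fell after PKM2 KD (-0.26 ± 0.09, adjusted P = 0.0169).

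A list of 12 genes of the ATF4 response was tested in the same way. The difference between the knockdowns passed in 8 of the 12, each higher after PKM2 KD, where 25.7% of all tested genes were. After PKM2 KD 7 rose, where 33.6% of all tested genes did, CHAC1 fell and 4 were not called, with a median log2 fold change of 0.77. ATF4 itself lay at 174, 218 and 194 CPM in NC and at 423, 438 and 475 CPM in PKM2 KD (1.19 ± 0.08, adjusted P = 6.67e-08), and DDIT3 at 9.08, 18.4 and 11.2 CPM and 58.3, 46.0 and 54.9 CPM (2.05 ± 0.19, adjusted P = 1.6e-06). The amino acid enzyme genes of the list, ASNS at -0.16 ± 0.11, PSAT1 at -0.05 ± 0.05 and CTH at 0.32 ± 0.16, were not called. After NONO KD 6 of the 12 fell, against 17.2% of all tested genes, among them ASNS (-0.80 ± 0.18, adjusted P = 0.006, lost on the TPM scale) and CEBPB (-1.35 ± 0.20, adjusted P = 0.000426), NUPR1 rose and 5 were not called, and ATF4 stood at 0.07 ± 0.05. The CHAC1 call rested on libraries between 2.70 and 17.9 CPM in PKM2 KD, which overlap NC, and was lost with DESeq2 and without PKM2 KD replicate 2 or 3 or NC replicate 2. That of NUPR1 after NONO KD rested on 0.90 to 2.05 CPM in NC and 1.93 to 3.94 CPM in the knockdown, which overlap, and was lost on the TPM scale, with the replicate block and without NONO KD replicate 1 or 2 or NC replicate 3.

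The promoter windows of the members were read for the C/EBP-ATF element, the composite site that ATF4 binds, because ATF4 differed between the experiments. RefSeq windows on GRCh38.p14, from 250 bases before to 50 after the transcription start, were given for 30 of the 35 members. The letters TGATGNAA, searched on both strands, stood in 7 of 16 cytosolic and 1 of 14 mitochondrial members, against 4.46% of 27305 genes. All 8 are shown, so that they can be set against the calls, with the element in capitals and read 5′ to 3′ on the strand of the gene.
IARS1, chr9:92293692-92293721, minus strand: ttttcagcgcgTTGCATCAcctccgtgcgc
AARS1, chr16:70289675-70289704, minus strand: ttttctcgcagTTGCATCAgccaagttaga
MARS1, chr12:57488053-57488082, plus strand: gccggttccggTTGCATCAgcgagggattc
TARS1, chr5:33440956-33440985, plus strand: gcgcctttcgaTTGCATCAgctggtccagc
CARS1, chr11:3057407-3057436, minus strand: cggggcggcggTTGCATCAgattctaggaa
NARS1, chr18:57621804-57621833, minus strand: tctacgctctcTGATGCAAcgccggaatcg
GARS1, chr7:30594834-30594863, plus strand: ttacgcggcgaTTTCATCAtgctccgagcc
YARS2, chr12:32756076-32756105, minus strand: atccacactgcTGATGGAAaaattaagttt

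6 of the 7 cytosolic matches lie within 33 bases of the transcription start, and that of AARS1 lies 187 bases before it. Of those 7 genes IARS1 and AARS1 rose, MARS1 fell and 4 were not called after PKM2 KD, and after NONO KD 3 fell (GARS1, CARS1 and MARS1) and 4 were not called. Of the 9 cytosolic genes with a window but no match 4 rose, 1 fell and 4 were not called after PKM2 KD. SARS1 and KARS1, the cytosolic members with the largest rises after PKM2 KD, are among those 9. LARS1 and YARS1, which rose after PKM2 KD, and VARS1, which fell, had no window and were not searched. Of all tested genes 33.6% rose and 34.7% fell after PKM2 KD, and 16.2% and 17.2% after NONO KD. YARS2, the mitochondrial member with a match, rose after PKM2 KD and was not called after NONO KD. The NRF1 motif, chosen for its frequency in promoters of mitochondrial genes, stood in 3 of 16 cytosolic and 3 of 14 mitochondrial members, against 6.98% of genes. A match is a description of the letters and shows no binding.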

How the data were processed

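RNA-seq of 12 poly(A)-selected MDA-MB-231 libraries was used, grouped and numbered as in the sample labels. Column names repeat between the tables, and the table decided the experiment. The deposited values are estimated counts (fractional) and TPM for each gene. The submitters' processing notes list fastp, HISAT2, StringTie, RSEM, DESeq2, edgeR and limma and the build hg19, without roles or versions. The division of reads between near-identical or overlapping genes and the use of strand are not given in the sources used here. The tables also hold the authors' fold changes, p-values, calls and group mean TPM, which were not used. Of the columns of single libraries 0 were left out.

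Estimated counts were rounded and tested in edgeR 4.0.16 (R 4.3.3) with TMM factors, filterByExpr and the quasi-likelihood test, separately in each experiment, over all genes that passed, with Benjamini-Hochberg adjustment over all of them. Genes with an adjusted P below 0.05 were called raised or lowered. The difference between the knockdowns was an interaction term over all 12 libraries. CPM values use the TMM library sizes, and SE is that of the fitted log2 fold change. The study's rule was a fold change above 2 with P below 0.05. Alternatives were DESeq2 1.42.0, RLE factors, no filter, a replicate block, limma 3.58.1 on log2(TPM + 1) (genes of mean TPM of at least 1) or log2(TPM + 0.1), each library left out, and removal of trends with length or GC content in 20 bins. Trend removal shifted the log2 fold changes and gave no P, so a call said to hold in every fit was not tested under it. On simulated counts with 200 genes changed 4-fold the edgeR test recovered 200 in each of the 3 comparisons. False calls were 13, 10 and 10 for NONO, PKM2 and their difference. No member doubled or halved, so the detection of changes of the size seen here was not tested. Total counts of 19861762 to 28455268 gave every member at least 6.28 CPM in every library.

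Of the 37 genes that matched the rule 2 are not reported here, and the counts, sums and medians of members leave them out. The members, lists and tests were chosen with earlier results of these data known. Every reported member could be named. Values in every library are given, in each experiment, for the 3 called cytosolic and 3 called mitochondrial members with the largest rise and the largest fall and, in the comparison of the knockdowns, for the 3 of each compartment with the smallest P, and for NONO and PKM. Lists are given by counts and examples with the largest changes, and ATF4, ASNS, PSAT1, CTH, NUPR1, ERBB2, EPCAM and the scaffold genes were named after their values were seen.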

Additional observations from a re-analysis of the deposited data

Results flagged for a closer look

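19 members changed by different amounts in the knockdowns in the edgeR test of the difference, PKM2 minus NONO on the log2 scale, with adjusted P below 0.05. Higher after PKM2 KD were SARS1 by 0.95, YARS1 by 0.72, IARS1 by 0.46, KARS1 by 0.40, GARS1 by 0.38, FARSB by 0.25, RARS1 by 0.23 and WARS1 by 0.21 among the cytosolic genes, and YARS2 by 0.61 and CARS2 by 0.45 among the mitochondrial genes. The difference was -0.41 for VARS1, -0.35 for QARS1 and -0.18 for MARS1, and among the mitochondrial genes -0.50 for AARS2, -0.46 for VARS2, -0.45 for SARS2, -0.35 for NARS2, -0.34 for EARS2 and -0.27 for IARS2. 12 of the 19 passed in every alternative fit run (SARS1, YARS1, IARS1, KARS1, GARS1, VARS1, QARS1, YARS2, CARS2, AARS2, VARS2 and IARS2). The other 7 missed the threshold on the TPM scale. Among them MARS1 was also lost without any 1 of 9 libraries, FARSB without NONO KD replicate 3, PKM2 KD replicate 2 or NC replicate 3 of the PKM2 experiment, RARS1 without NONO KD replicate 2, and WARS1 without the count filter. FARSB was called in neither experiment alone, at -0.16 and 0.11. GARS1 fell after NONO KD and stood at 0.03 after PKM2 KD, while QARS1 rose after NONO KD and stood at -0.11 after PKM2 KD. WARS1 fell in both experiments, and its positive difference stands for the smaller fall after PKM2 KD.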

How the results depend on the processing

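No called member changed direction under any alternative. 5 of 15 calls after NONO KD, 12 of 20 after PKM2 KD (AARS2, CARS2, IARS1, KARS1, RARS1, SARS1, SARS2, VARS1, VARS2, WARS2, YARS1 and YARS2) and 12 of 19 in the comparison of the knockdowns passed in every fit. The trend removals gave no P and are not among these fits. With the GC trend removed after PKM2 KD, VARS1 stood at -0.09 and AARS2 at -0.12. Of the members not called, 9, 7 and 6 changed sign somewhere, and 1 of these passed with the other sign (TARS1 after PKM2 KD on log2(TPM + 0.1)). The counts for the complex and the ATF4 genes, and those of DESeq2 and limma with a fold change above 2, were chosen after seeing the data. The largest shifts came with limma on TPM. After NONO KD limma on log2(TPM + 1) and on log2(TPM + 0.1) gave cytosolic medians of -0.068 and -0.069 and mitochondrial medians of 0.068 and 0.072, respectively, and each had 3 cytosolic genes raised, 1 mitochondrial gene raised and 1 lowered, 2 complex genes raised and 0 lowered, and 0 ATF4 genes raised. Without the TPM filter 3 cytosolic genes were raised and 3 lowered, 0 mitochondrial genes were raised and 0 lowered, 2 complex genes were raised and 0 lowered, 0 ATF4 genes were raised and 3 lowered, with medians of -0.068 and 0.068. After PKM2 KD all 3 limma settings gave a cytosolic median of -0.015 and 2 mitochondrial genes raised, with a mitochondrial median of -0.087, or -0.091 with log2(TPM + 0.1). With log2(TPM + 0.1), 5 cytosolic genes were lowered, and with either pseudocount 2 complex and 3 ATF4 genes were lowered. Without the TPM filter 5 cytosolic genes were raised, and 0 complex and 0 ATF4 genes were lowered. The comparison of the knockdowns gave 5 cytosolic genes higher after PKM2 KD. A fold change above 2 left 0 members in either direction and compartment. DESeq2 gave 0 ATF4 genes lowered after PKM2 KD, and the fit without a count filter 2 raised after NONO KD. With the length trend removed the mitochondrial median after PKM2 KD was 0.040, and with the GC trend removed the cytosolic median was 0.15. That removal moved 15 of the 20 calls after PKM2 KD by more than the spread between replicates, and none changed sign. The causes were not tested.

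With each library left out in turn, 5 to 7 cytosolic genes rose and 2 to 5 fell after NONO KD (median -0.031 to 0.024), and 2 to 7 mitochondrial genes rose and 0 to 2 fell (median 0.11 to 0.16). After PKM2 KD 8 to 9 cytosolic genes rose and 2 to 5 fell (median 0.062 to 0.16), and 3 to 5 mitochondrial genes rose and 4 to 4 fell (median -0.01 to 0.03). In the comparison of the knockdowns 7 to 10 cytosolic genes were higher and 2 to 4 lower after PKM2 KD, and 2 to 3 and 6 to 7 mitochondrial genes. Complex genes raised ranged from 4 to 7 and lowered from 0 to 1 after NONO KD, and 8 to 8 and 1 to 2 after PKM2 KD. ATF4 genes raised ranged from 0 to 2 and lowered from 6 to 6 after NONO KD, and 7 to 8 and 0 to 2 after PKM2 KD. NC replicate 1 of the NONO experiment and PKM2 KD replicate 3 stood apart from their groups. For PKM2 KD replicate 3 the chi-square per degree of freedom was 12.3 and 10.5 against replicates 1 and 2, and 3.34 between those.

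Repeat numbers showed no pairing of the libraries: deviations of same-numbered NC and knockdown libraries correlated at -0.18, 0.11 and -0.11 in the NONO and at -0.14, -0.03 and 0.12 in the PKM2 experiment. Those of different-numbered libraries ran from -0.28 to 0.27. With 3 libraries in a group the deviations constrain each other, so this check cannot exclude a pairing. With the replicate block 15 members were called after NONO KD and 19 after PKM2 KD, WARS1 after PKM2 KD and the MARS1 difference were lost, and 0 ATF4 genes were raised after NONO KD.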
